A study of Mus musculus with 8 samples.

Results

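The 10 genes described here belong to canonical Wnt signalling: the Tcf/Lef transcription factors Tcf7, Lef1, Tcf7l1 and Tcf7l2, the described Wnt targets Axin2, Sp5 and Tnfrsf19, and the secreted modulators Sfrp1, Sfrp2 and Dkk1. They were taken by symbol, and every probe that the platform annotation assigns to them was read. This gave 14 probes for 9 of the 10 genes, out of 16593 genes with a probe, and Tcf7 was not analysed here. Of these probes 8, 1 for each of 8 genes, were detected on at least 4 of the 8 arrays and entered the comparison with 8830 genes in all. Detected means a detection p under 0.05 against negative control beads.

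The arrays came from GRHL2 knockout clones (4 arrays, clones 1 to 4) and GRHL2 wildtype subclones (4 arrays, subclones 1 to 4) of V6.5, a mouse embryonic stem cell line. Both groups had been grown with serum, LIF and 2i, a pair of inhibitors of GSK3 and MEK, and LIF and 2i were then withdrawn for 3 days, which gives epiblast-like cells. No array of cells still in 2i was part of the comparison, so the values set knockout against wildtype after withdrawal and say nothing of the course of withdrawal. The position of the deletion in Grhl2 and the number of separate derivations are not given in the sources used here, and p-values measure the spread between these arrays. In RNA from whole cultures, fewer cells that express a gene and less RNA per cell cannot be told apart.

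In canonical Wnt signalling a secreted Wnt protein binds a Frizzled receptor and the coreceptor Lrp5 or Lrp6, the complex that destroys beta-catenin is inactivated, and beta-catenin enters the nucleus, where it binds Tcf/Lef factors on target genes. Inhibition of GSK3, as in 2i, stabilises beta-catenin without a ligand. In mouse embryonic stem cells Tcf7l1 acts mainly as a repressor that limits pluripotency genes and is relieved by beta-catenin, while Tcf7 and Lef1 act as activators. Axin2 and Sp5 are induced by the pathway and feed back on it.

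The targeted gene was lower in the knockout clones. Grhl2 had log2 normalized intensities of 7.92, 7.86, 7.06 and 7.99 in knockout clones 1 to 4 and 9.62, 8.72, 8.16 and 8.87 in wildtype subclones 1 to 4, a difference of -1.13 (SE 0.30, limma adjusted p = 0.0369). All 4 knockout arrays lay below all 4 wildtype arrays, and the probe stayed detected on every knockout array. The Grhl2 call was lost in 6 of the 8 fits that omitted an array (adjusted p up to 0.0835), with a negative change in each. The arrays themselves differed in brightness: mean bead intensity before normalization was 508 ± 51.5 (SD, n = 4) in knockout and 703 ± 32.4 (SD, n = 4) in wildtype, or 72.3% (exact permutation p = 0.0286, two-sided, the smallest that 4 arrays against 4 allow). Of 8830 genes, 1211 changed (13.7%), 578 higher (6.55%) and 633 lower (7.17%) in knockout, a split that was 36 and 5735 where arrays were not normalized to each other, and 236 and 1867 where they were scaled to one median. Of 11 epiblast markers with a probe, 10 were detected on all arrays. Of 11 fibroblast markers 4 (Thy1, Dcn, Fbln2 and Twist2) were detected on all arrays. Another 6, among them the collagen genes Col1a1, Col1a2 and Col3a1, were detected on none. Trophoblast markers differed between arrays: the mean log2 value of 8 measured markers was 5.48 to 6.09 on knockout arrays and 6.39 to 8.23 on wildtype arrays, with Elf5, Hand1 and Tpbpa detected on none. The changes of the 8 measured trophoblast markers were all negative (0 positive and 8 negative, median log2 change -1.255), and 2 passed. Tfap2c and Krt18 were these 2, with log2 changes of -2.62 and -1.60 (limma adjusted p = 0.0249 and 0.0478). Both had their highest values on wildtype subclone 3. These calls failed in 3 and 7 of the 8 fits that omitted an array, with no background correction (-1.55 and -1.27, adjusted p = 0.0607 and 0.0596), and in the authors' deposited table (-1.30 and -1.09, adjusted p = 0.114 and 0.103). With the mean of all its retained probes Tfap2c was -1.93 (limma adjusted p = 0.0584). Of 9 neuroectoderm markers with a probe, 5 were detected on all arrays, and Pax6, Hes5 and Foxd3 on none. Of 5 measured neuroectoderm markers 2 passed (40.0%, 4 positive and 1 negative in all), and Gbx2 and Irx3 rose by 3.08 and 1.29. The Irx3 call was lost with no normalization between arrays. Of 11 measured epiblast markers 2 passed (18.2%, 8 positive and 3 negative), and Pou3f1 and Utf1 rose by 0.88 and 0.46. The call of Pou3f1 was lost with no normalization between arrays (0.23, limma adjusted p = 0.368). That of Utf1 was lost there too (-0.20), with median scaling (0.32, adjusted p = 0.0848) and in 2 of the 8 fits that omitted an array. Of 5 measured fibroblast markers 1 passed (20.0%, 4 positive and 1 negative), and Twist2 rose by 0.97, against 0.30 in the authors' deposited table (adjusted p = 0.00633). None of the measured markers of extraembryonic endoderm (3) or of primitive streak and mesoderm (6) passed, and the brightest of each, Dab2 and Fgf8, differed by 0.02 and -0.60. The part of these differences in the results below was not tested.

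In knockout cells 2 of the 8 measured Wnt genes, Tnfrsf19 and Sfrp1, were higher and 1, Tcf7l2, was lower, at an adjusted p under 0.05. The classical readouts of the pathway, Axin2, Lef1 and Sp5, did not pass, and neither did Tcf7l1 or Sfrp2. The 3 calls among 8 genes stand beside 13.7% of all genes tested. The knockout and wildtype arrays did not overlap for the same 3 genes, 2 higher and 1 lower, against 12.4% and 10.8% of all genes (23.2% in either direction). Adjusted over probes in place of genes, the same 3 passed, against 13.0% of all retained probes. The median change of the 8 genes was 0.28 on the log2 scale and that of all genes 0.01. Values below are log2 normalized intensities of background-corrected, quantile-normalized arrays unless named otherwise, changes are knockout minus wildtype, and SE is limma's moderated standard error. With each array's log2 mean intensity as a covariate in limma, which does not overlap between the groups, 0 of the 8 genes passed (5 at an unadjusted p under 0.05) and 16 of all genes (1251 at an unadjusted p under 0.05). In that fit Sfrp1 was 1.63 (adjusted p = 0.0901), Tnfrsf19 2.25 (0.214) and Tcf7l2 -0.10 (0.945).

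**Figure D1:**
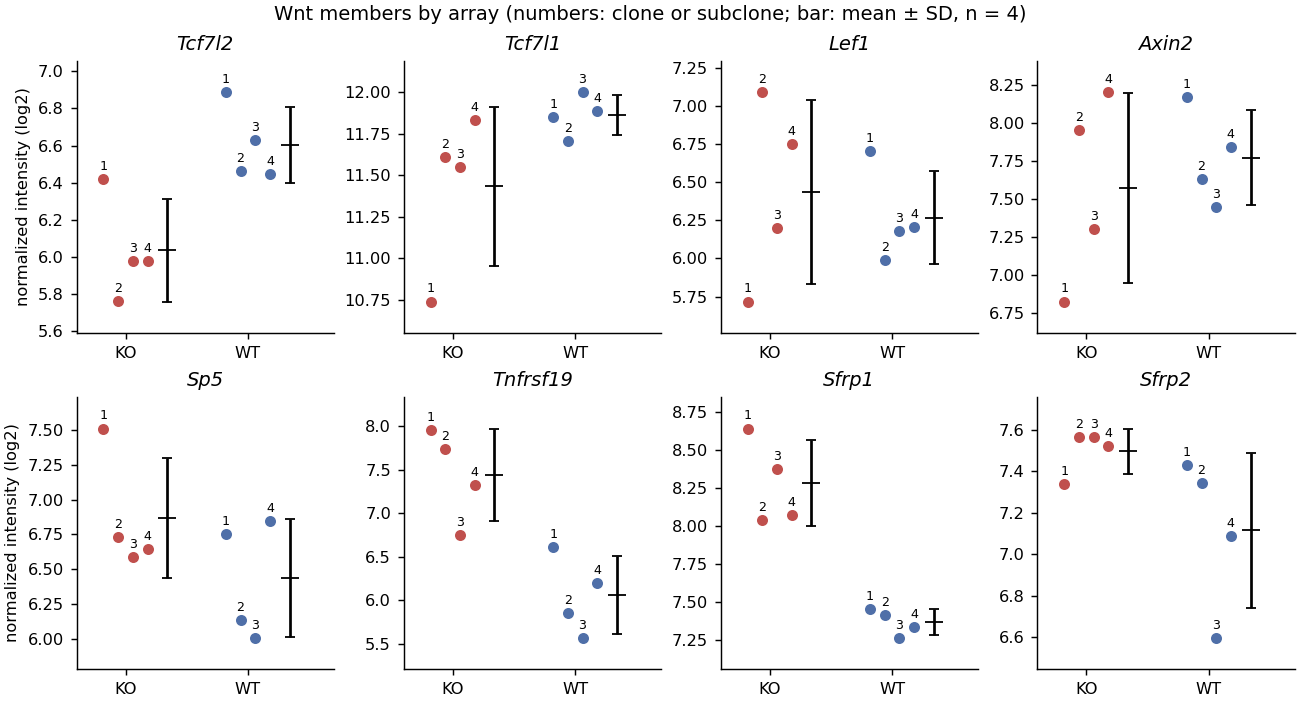
Log2 normalized intensity of the 8 measured Wnt genes on each array, with 4 knockout (KO) clones left and 4 wildtype (WT) subclones right. Points are single arrays with their clone number, and the black bar is the mean with its SD. The groups do not overlap for Tcf7l2, Tnfrsf19 and Sfrp1, and knockout clone 1 has the lowest value of all 8 arrays for Tcf7l1, Lef1 and Axin2 and the highest for Sp5, Tnfrsf19 and Sfrp1.

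Among the Tcf/Lef factors, Tcf7l2 fell. Tcf7l2, a context-dependent activator or repressor of Wnt targets, had values of 6.42, 5.77, 5.98 and 5.98 in knockout clones 1 to 4, against 6.89, 6.46, 6.63 and 6.45 in wildtype subclones 1 to 4. Every knockout array lay below every wildtype array, with knockout clone 1 only just below wildtype subclone 4. The mean was 6.04 ± 0.27 in knockout and 6.61 ± 0.20 in wildtype (SD, n = 4 each), a difference of -0.57 (SE 0.16, limma adjusted p = 0.0435), which put knockout at 67.4% of the wildtype level. Its intensities before normalization were low: 189, 152, 163 and 151 in knockout clones 1 to 4, against 273, 223, 235 and 245 in wildtype subclones 1 to 4. The lowest intensity that counted as detected was 133 to 143 on knockout arrays and 153 to 164 on wildtype arrays, so the knockout values lay close to that limit. Both other Tcf7l2 probes were detected on 0 of 8 arrays and give no second measurement. The call was near the threshold. It was lost without any single array other than knockout clone 1, with adjusted p between 0.0632 and 0.106 over these 7 fits, and with no background correction (-0.22, adjusted p = 0.0614). In the authors' deposited table the change was -0.22 with an adjusted p of 0.0465.

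Tcf7l1, the main Tcf/Lef repressor of mouse pluripotent cells, had values of 10.74, 11.61, 11.55 and 11.83 in knockout clones 1 to 4, against 11.85, 11.71, 12.00 and 11.89 in wildtype subclones 1 to 4. Knockout clones 1, 2 and 3 lay below all wildtype arrays, clone 1 by the most, while knockout clone 4 lay within their range. The difference of -0.43 (SE 0.21, 95% interval -0.90 to 0.04) did not pass (limma adjusted p = 0.191), and without knockout clone 1 it was -0.20 (adjusted p = 0.285). Before normalization, intensities were 1697 to 2514 on knockout arrays and 4066 to 4997 on wildtype arrays and did not overlap. With no normalization between arrays the difference was -1.05 and passed (adjusted p = 0.000272), where the median of all genes was -0.58. Tcf7l1 lies on chromosome 6. On wildtype subclone 3, which held the highest Tcf7l1 value, its 428 measured genes had a median shift of 0.40 (88.3% in that direction). A shift here is relative to the mean of the group's other arrays. On knockout clone 1, which held the lowest Tcf7l1 value, it was -0.16 (66.6% in that direction). The remaining arrays lay between -0.14 and 0.09. The part of these shifts in the Tcf7l1 difference was not tested. Without knockout clone 1 and wildtype subclone 3 together the difference was -0.15 (adjusted p = 0.387). A second Tcf7l1 probe was detected on 1 of 4 knockout arrays and 2 of 4 wildtype arrays and was not tested.

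Lef1, an activator that is also a Wnt target, varied more among the knockout clones than between the groups. It had 5.72, 7.09, 6.20 and 6.75 in knockout clones 1 to 4, against 6.70, 5.99, 6.18 and 6.20 in wildtype subclones 1 to 4. Knockout clones held both the lowest and the highest value of the 8 arrays. The difference was 0.17 (SE 0.28, 95% interval -0.45 to 0.79, limma adjusted p = 0.710), and its sign turned to negative with no normalization between arrays (-0.42), with median scaling (-0.12) and without knockout clone 2 (-0.047). The other Lef1 probe was detected on 0 of 8 arrays.

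Axin2, a scaffold of the destruction complex and the most widely used readout of the pathway, showed the same spread among clones. It had 6.83, 7.96, 7.30 and 8.20 in knockout clones 1 to 4, against 8.17, 7.63, 7.45 and 7.84 in wildtype subclones 1 to 4. As for Lef1, knockout clone 1 was the lowest of all arrays, knockout clone 3 the next of the knockout arrays, and clones 2 and 4 were the highest of them. The range within the knockout group was 1.37 for both genes, against 0.72 for Axin2 and 0.71 for Lef1 within wildtype. The Axin2 difference was -0.20 (SE 0.29, 95% interval -0.84 to 0.43, limma adjusted p = 0.659), and it was 0.045 without knockout clone 1. Before normalization Axin2 intensities did not overlap, at 213 to 294 on knockout arrays and 326 to 493 on wildtype arrays. With no normalization between arrays Axin2 passed, at -0.89 (adjusted p = 0.00393) beside the median of -0.58 over all genes.

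Sp5, a zinc finger factor that Wnt induces and that represses Tcf/Lef targets, had 7.51, 6.73, 6.58 and 6.65 in knockout clones 1 to 4, against 6.75, 6.14, 6.01 and 6.84 in wildtype subclones 1 to 4. The groups overlapped, and knockout clone 1 stood above all other arrays, opposite to its place for Axin2 and Lef1. The difference was 0.43 (SE 0.25, 95% interval -0.13 to 0.99, limma adjusted p = 0.263), 0.22 without knockout clone 1, and -0.18 with no normalization between arrays.

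Tnfrsf19 had the larger rise. This gene codes for a receptor of the tumour necrosis factor receptor family, also known as Troy, and is a described Wnt target of intestinal stem cells. It had 7.96, 7.73, 6.75 and 7.33 in knockout clones 1 to 4, against 6.61, 5.85, 5.57 and 6.20 in wildtype subclones 1 to 4. All knockout arrays lay above all wildtype arrays, knockout clone 3 only just above wildtype subclone 1. The mean was 7.44 ± 0.53 in knockout and 6.06 ± 0.45 in wildtype (SD, n = 4 each), a 2.62-fold rise (log2 change 1.39, SE 0.28, limma adjusted p = 0.0163). It was rank 12 among the rises of all 8830 genes. Before normalization the groups overlapped, with 332, 266, 199 and 211 in knockout clones 1 to 4 and 247, 187, 175 and 226 in wildtype subclones 1 to 4. The lowest intensity that counted as detected was 153 to 164 on wildtype arrays, so wildtype subclones 2 and 3 lay close to that limit. The change kept its call without any single array (1.21 to 1.62, adjusted p 0.0138 to 0.0464) and with no normalization between arrays (0.77, adjusted p = 0.0269). It was smaller with no background correction (0.66, adjusted p = 0.0161), as in the authors' deposited table (0.63, adjusted p 0.0210). The other Tnfrsf19 probe was detected on 0 of 8 arrays.

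Among the secreted modulators, which act outside the cell on Wnt proteins or their receptors, Sfrp1 rose. Sfrp1, a secreted frizzled-related protein that binds Wnt proteins, had 8.64, 8.04, 8.38 and 8.07 in knockout clones 1 to 4, against 7.46, 7.41, 7.26 and 7.33 in wildtype subclones 1 to 4. The groups were parted by more than the whole wildtype range of 0.19. The mean was 8.28 ± 0.29 in knockout and 7.37 ± 0.09 in wildtype (SD, n = 4 each), a 1.89-fold rise (log2 change 0.92, SE 0.15, limma adjusted p = 0.00703). Its intensities before normalization overlapped: 467, 302, 374 and 277 in knockout clones 1 to 4, against 348, 318, 300 and 346 in wildtype subclones 1 to 4. With no normalization between arrays the change was 0.23 and did not pass (adjusted p = 0.336), beside a median of -0.58 over all genes, and with median scaling it was 0.59 (adjusted p = 0.0341). Sfrp1 lies on chromosome 8. On knockout clone 1 the 492 measured genes of that chromosome had a median shift of -0.43 relative to the mean of the group's other arrays. Of these genes 90.7% went in that direction. That clone held the highest Sfrp1 value, and the part of the shift in the Sfrp1 change was not tested. Without knockout clone 1 the change was 0.80 (adjusted p = 0.00808), and over all single arrays left out it was 0.80 to 1.00 (adjusted p 0.00808 to 0.0246). The authors' deposited table gave 0.57 (adjusted p 0.00523).

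Sfrp2, a close relative of Sfrp1, had 7.34, 7.57, 7.56 and 7.52 in knockout clones 1 to 4, against 7.43, 7.34, 6.60 and 7.09 in wildtype subclones 1 to 4. The groups overlapped, and wildtype subclone 3 was the lowest array. The difference of 0.38 (SE 0.18, 95% interval -0.01 to 0.77) did not pass (limma adjusted p = 0.164), and it was -0.29 with no normalization between arrays. Dkk1, which blocks the coreceptors Lrp5 and Lrp6, was detected on 0 of 8 arrays, with intensities of 122 to 127 on knockout arrays and 139 to 154 on wildtype arrays. No difference of Dkk1 was detectable at this signal.

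**Figure D2:**
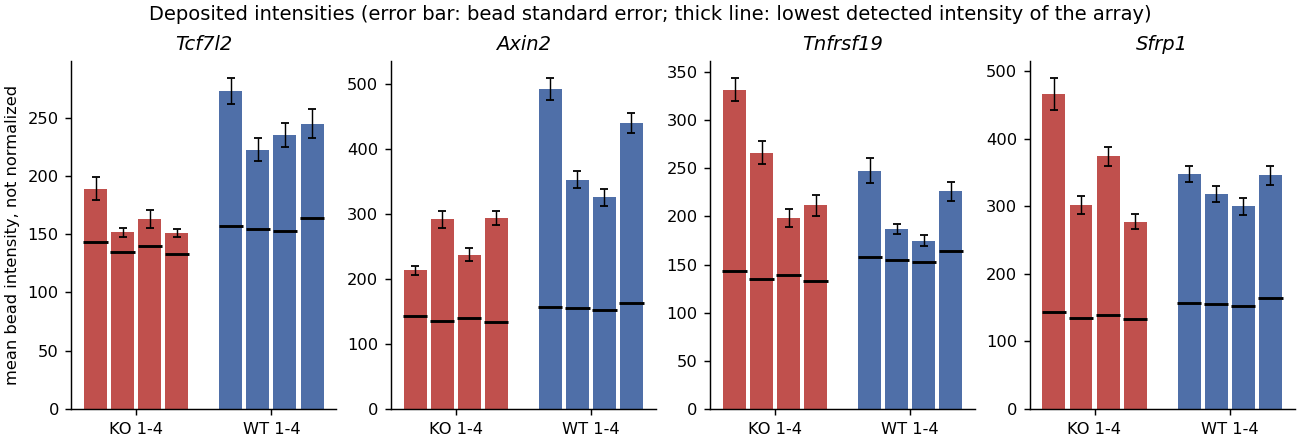
Deposited mean bead intensity (vertical axis, not normalized) of Tcf7l2, Axin2, Tnfrsf19 and Sfrp1 on knockout arrays 1 to 4 (left, red) and wildtype arrays 1 to 4 (right, blue). Error bars are the bead standard error of each array, and the thick line is the lowest intensity detected on that array. Tcf7l2 and Axin2 are lower on all knockout arrays, while Tnfrsf19 and Sfrp1 overlap between the groups before normalization.

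**Figure D3:**
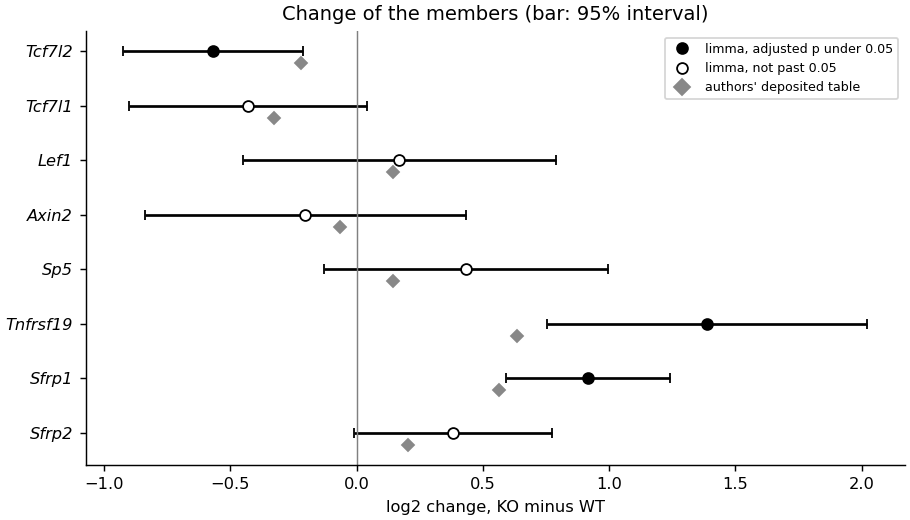
Log2 change (horizontal axis, knockout minus wildtype) of the 8 measured Wnt genes, with 95% intervals from limma over 4 arrays each. Filled circles are past an adjusted p of 0.05, open circles are not, and grey diamonds are the changes of the authors' deposited table, which are smaller for Tnfrsf19, Sfrp1 and Tcf7l2.

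The proximal promoters of the members were read from RefSeq (build GRCm38.p6), in windows of 250 bases before to 50 bases after each annotated start, which gave 15 windows for 9 of the 10 genes, Tcf7 included. Sfrp1 had no window in that table, so no motif was searched for it. A Tcf/Lef motif, CTTTGAT or CTTTGAA on either strand, occurred in 3 of the 15 windows and in 8.65% of all 32851 windows. The grainyhead motif AACCNGTT, also searched on both strands, occurred in 0 of the 15 and in 2.09% of all. Lef1, Tcf7, Tcf7l2 and Tnfrsf19 had more than 1 window each, and some Lef1 windows overlapped. The 15 are thus not separate promoters. The 3 windows with a Tcf/Lef match are shown because they belong to a member that rose (Tnfrsf19), a member that did not pass (Sp5) and a member below detection (Dkk1). They lie at chr14:61037938-61038237 on the minus strand (Tnfrsf19, 1 of 2 annotated starts), chr2:70474673-70474972 on the plus strand (Sp5) and chr19:30549447-30549746 on the minus strand (Dkk1). Each is written in the direction of the gene, and capitals mark the match, which begins 202, 104 and 117 bases before the start of Tnfrsf19, Sp5 and Dkk1.
Tnfrsf19: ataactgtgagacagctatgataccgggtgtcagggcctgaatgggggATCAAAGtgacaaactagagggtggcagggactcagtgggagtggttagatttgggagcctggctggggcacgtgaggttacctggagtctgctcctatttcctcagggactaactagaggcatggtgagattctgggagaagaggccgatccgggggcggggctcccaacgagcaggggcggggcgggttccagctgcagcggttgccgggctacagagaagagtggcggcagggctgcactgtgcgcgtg
Sp5: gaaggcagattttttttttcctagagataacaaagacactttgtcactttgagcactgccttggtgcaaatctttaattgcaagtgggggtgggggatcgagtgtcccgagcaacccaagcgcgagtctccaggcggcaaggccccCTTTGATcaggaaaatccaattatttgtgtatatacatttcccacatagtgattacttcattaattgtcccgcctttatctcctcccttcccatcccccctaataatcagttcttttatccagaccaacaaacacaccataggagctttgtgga
Dkk1: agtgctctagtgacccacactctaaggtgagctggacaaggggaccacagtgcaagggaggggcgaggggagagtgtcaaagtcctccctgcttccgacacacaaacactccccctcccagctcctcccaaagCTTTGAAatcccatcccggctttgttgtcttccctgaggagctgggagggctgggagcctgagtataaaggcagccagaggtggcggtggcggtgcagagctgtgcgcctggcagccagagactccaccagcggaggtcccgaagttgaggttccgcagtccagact
The match in Tnfrsf19 reads on the strand opposite to the gene, those in Sp5 and Dkk1 on the same strand. A match is a description of these letters, and no binding was measured on these arrays.

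The genes with profiles most like the 3 called members over the 8 arrays were found by the root mean square difference of log2 values centred on each gene. Closest to Tnfrsf19 were Fst, Tcf15 and Hoxb4 (root mean square differences 0.250, 0.253 and 0.296), which rose by 1.15, 1.45 and 0.99 (limma adjusted p = 0.0113, 0.0108 and 0.0497). Fst codes for follistatin, a secreted inhibitor of activin, and Hoxb4 for a homeobox factor of posterior tissues. Closest to Sfrp1 were Pknox2, Tro and Gprin1 (0.104, 0.112 and 0.121), which rose by 0.90, 0.84 and 0.75 (adjusted p = 0.0122, 0.00629 and 0.0210). Closest to Tcf7l2 were Atg7, Wsb1 and Pdha1 (0.0964, 0.101 and 0.101), which fell by 0.51, 0.58 and 0.51 (adjusted p = 0.0416, 0.0229 and 0.0226). Likeness here includes the difference between the groups, which was itself the reason for choosing these 3 members.

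Across 6 lists of other Wnt pathway genes, 12 of 66 measured genes passed the threshold (18.2%, against 13.7% of all genes), 7 higher and 5 lower, and the median change was -0.00 on the log2 scale. Of 7 measured ligand and secretion genes only Wnt4 passed. Wnt4, a Wnt protein best known from kidney and gonad, averaged 4.92 ± 0.38 in knockout and 5.76 ± 0.44 in wildtype (SD, n = 4 each) and fell by 0.84 (limma adjusted p = 0.0473), and it was detected on 2 of 4 knockout arrays. Of 10 receptors and coreceptors, Fzd10 rose and Fzd6 fell. The Frizzled receptor gene Fzd10 averaged 9.72 ± 0.20 in knockout and 8.88 ± 0.47 in wildtype (0.84, adjusted p = 0.0339). Fzd6, a Frizzled gene of planar polarity, averaged 6.91 ± 0.14 in knockout and 7.68 ± 0.38 in wildtype and fell by 0.77 (adjusted p = 0.0251). The coreceptor genes Lrp5 and Lrp6 differed by -0.14 and -0.17 (adjusted p = 0.676 and 0.587). Of 6 other secreted modulators Dkk3 rose by 0.84 (adjusted p = 0.0202), with 6.34 ± 0.38 in knockout and 5.50 ± 0.17 in wildtype. Dkk3 is a divergent member of the Dickkopf family.

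Of 12 genes of the cytoplasmic steps, casein kinase gene Csnk1d alone passed, with 11.54 ± 0.09 in knockout and 11.07 ± 0.21 in wildtype (0.47, limma adjusted p = 0.0374). Ctnnb1, which codes for beta-catenin itself, differed by -0.23 (adjusted p = 0.139) and Gsk3b by 0.33 (adjusted p = 0.125). Of 12 nuclear cofactors 3 rose and 1 fell. The beta-catenin cofactor gene Pygo1 rose by 0.54 (adjusted p = 0.0202), the chromatin remodelling ATPase gene Smarca4 by 0.53 (adjusted p = 0.0201) and the histone deacetylase gene Hdac1 by 0.48 (adjusted p = 0.0335), while Bcl9l, which links beta-catenin to Pygo proteins, fell by 0.62 (adjusted p = 0.0492). Of 19 other described targets Klf2 rose by 1.03 (adjusted p = 0.0265), and Nanog and Rhou fell by 1.03 and 0.95 (adjusted p = 0.00158 and 0.0196). Klf2 and Rhou lie on chromosome 8, whose genes were shifted on knockout clone 1. Nanog lies on chromosome 6, whose genes were shifted on wildtype subclone 3. Without both arrays Klf2 was 0.81 and did not pass (limma adjusted p = 0.0678), Rhou was -0.68 (0.0297) and Nanog -1.04 (0.00445). Nanog is a described target of Tcf7l1 repression in mouse embryonic stem cells. It averaged 10.75 ± 0.07 in knockout and 11.78 ± 0.17 in wildtype, with no overlap. The rises of Csnk1d, Pygo1, Smarca4 and Hdac1 turned to negative values with no normalization between arrays, at -0.18, -0.11, -0.16 and -0.19. Nanog passed whichever single array was omitted. In the authors' deposited table, Wnt4 was -0.24 and Bcl9l -0.21 and neither passed (adjusted p = 0.0738 and 0.130). The other 10 passed there, with changes smaller by over 1.5 times for Fzd6 (-0.43), Dkk3 (0.28), Pygo1 (0.26), Klf2 (0.57) and Rhou (-0.52). That table passed 1603 of the 8830 genes (18.2%). It was made from the same 8 arrays on which the 12 genes were picked, so it is no separate measurement. With the mean of all retained probes of a gene in place of the brightest, Fzd10 was 0.53, Dkk3 0.55, Csnk1d 0.26 and Bcl9l -0.32, and these 4 did not pass (adjusted p = 0.120, 0.104, 0.101 and 0.127), so their probes differed in size of change. With median scaling none of the 7 rises passed in limma (adjusted p 0.0509 to 0.336). Each of the 11 genes other than Nanog failed in 1 or more of the 8 fits that omitted an array, Pygo1 in 1 and Wnt4, Bcl9l and Csnk1d in 7. Over all 66 genes of the 6 lists, the number past the threshold was 12 as reported. It fell to 3 without knockout clone 3, to 4 without wildtype subclone 2 or 4, and to 7 without knockout clone 4 or wildtype subclone 1. Over all single arrays left out it was 3 to 14. The number among all 8830 genes, 1211 as reported, fell in these fits too. It was 566 without knockout clone 3, and 559 and 510 without wildtype subclones 2 and 4. It was 657 without knockout clone 4 and 610 without wildtype subclone 1. The counts among the 66 can include genes other than the 12 named.

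**Figure D4:**
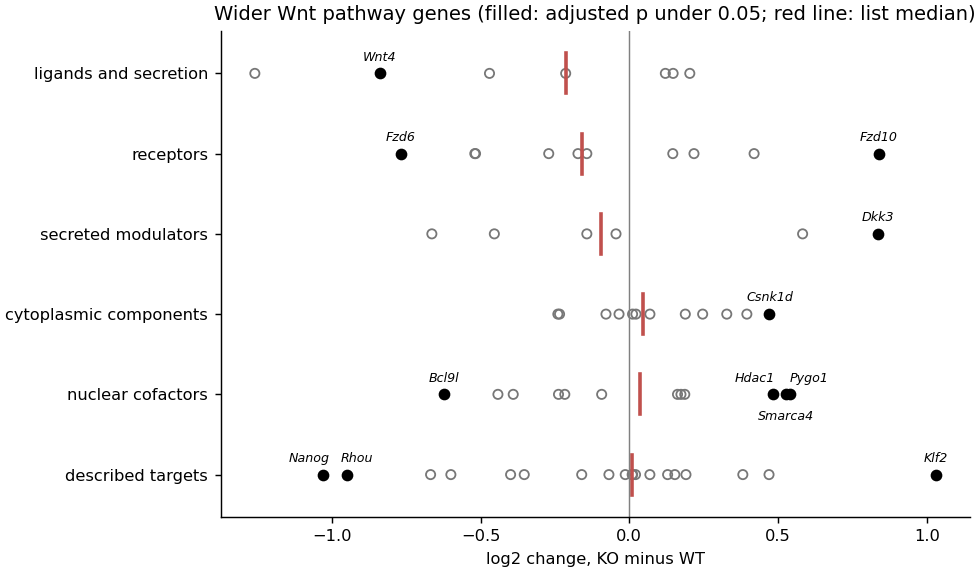
Log2 change (horizontal axis, knockout minus wildtype, 4 arrays each) of 66 other Wnt pathway genes in 6 lists. Filled points with names are past an adjusted p of 0.05, open points are not, and the red line is the list median. The 12 named genes lie on both sides of 0.

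**Figure D5:**
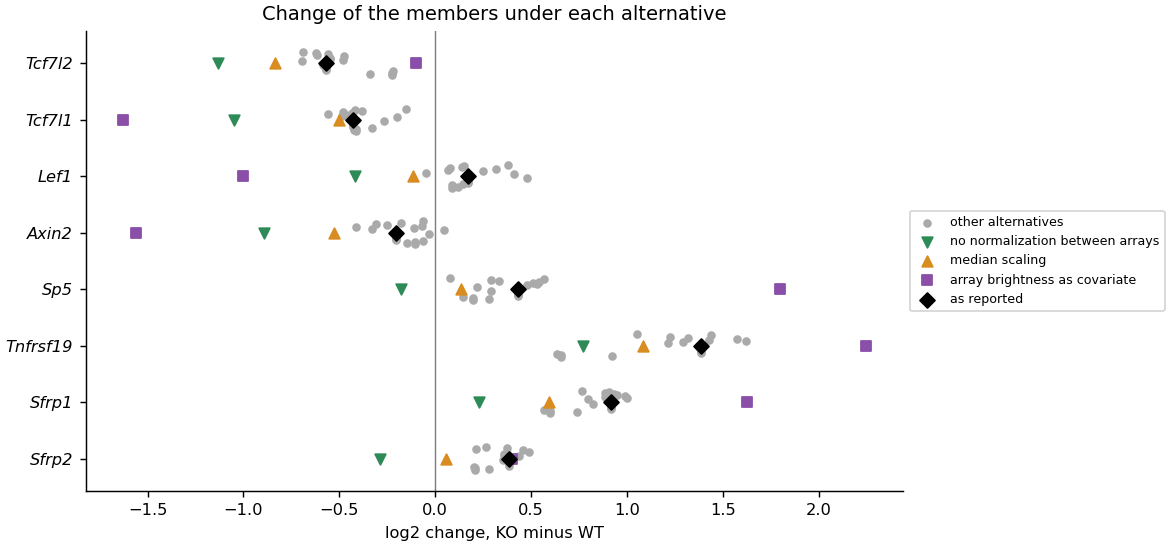
Log2 change (horizontal axis, knockout minus wildtype) of the 8 measured Wnt genes as reported (black diamonds) and under the alternative settings (grey and marked points). Tnfrsf19 and Sfrp1 stay above 0 and Tcf7l2 and Tcf7l1 below 0 under every alternative run, while Lef1, Axin2, Sp5 and Sfrp2 each change sign under at least 1. Alternatives in the detection filter, probe choice, moderation, threshold and clone block leave the changes as reported.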

How the data were processed

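Gene expression in total RNA was measured on Illumina MouseRef-8 bead arrays, 1 per clone. The deposited profile of 25697 probes gave, per the file headers, the mean bead intensity, its bead standard error, a count of beads and a detection p-value. The authors also deposited log2 values, quantile normalized with no background step as the values show (largest difference 4.97e-14 from that calculation), and a comparison table with log2 fold changes, p-values and moderated scores. The submitters' processing notes name limma, and other steps are not given in the sources used here.

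Intensities were corrected and quantile normalized with neqc (limma 3.58.1, R 4.3.3, offset 16). The detection filter (p under 0.05 on 4 or more arrays) left 12790 probes. Symbols came from the platform annotation (23978 probes), and the brightest retained probe stood for a gene. The groups were compared with lmFit and eBayes, two-sided, with Benjamini-Hochberg adjustment over 8830 genes and a threshold of 0.05. Adjustment over all 12790 retained probes gave the same 3 calls among the members, 13.0% of those probes passing. The 95% intervals use limma's moderated standard error. The number of arrays limits the precision. Member probes held 23 to 60 beads per array.

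The members, the wider lists and the alternatives were chosen with earlier results of these data known. Named were all members, Grhl2, in each wider list up to 4 genes with the largest changes past the threshold, 3 genes of the most similar profile per called member, and cell type markers. Col1a1, Col1a2, Col3a1, Thy1, Dcn, Fbln2, Elf5, Hand1, Tpbpa, Pax6, Hes5, Foxd3, Lrp5, Lrp6, Ctnnb1 and Gsk3b were named after their values were seen. Alternatives covered background correction, normalization, the authors' tables, the detection filter, probe choice, moderation, the threshold, weights for arrays, array brightness, a block for the clone number, and arrays left out. No block for slide or culture day was fitted, as neither is given in the sources used here. Of the per-sample columns, 0 were left unmapped, and 0 pairs of arrays held identical signals.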

Additional observations from a re-analysis of the deposited data

Results flagged for a closer look

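In 5 of 56 groups of 4 arrays examined over 28 genes, 1 array stood far from the other 3, by a gap that was, as a share of the group's whole range, above Dixon's 95% critical value for 4 values (chance gives about 1 in 20 groups). Among the Wnt members this was Sp5 in knockout, where clone 1 had 7.51 and the next array 6.73, a gap of 0.84 of the range. Grhl2 in knockout was lowest on clone 3, at 7.06 with the next at 7.86 (0.861 of the range). Smarca4 in knockout was highest on clone 3, at 8.28 with the next at 8.04 (0.873). Tfap2c and Krt18 in wildtype were both highest on subclone 3, Tfap2c at 10.86 with the next at 8.09 (0.848) and Krt18 at 11.27 with the next at 9.16 (0.901).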

How the results depend on the processing

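The limits of these comparisons are the 4 arrays a group, the brightness of the arrays, and probe signals of several members near the detection limit. Tnfrsf19 and Sfrp1 stayed positive and Tcf7l2 and Tcf7l1 negative under every alternative run. Not all of these runs could turn a sign. Those in the detection filter, probe choice, moderation, threshold and clone block left the log2 changes of the members as reported. The fit with no background correction and that on the authors' normalized values gave the same changes. Signs turned for Lef1 with no normalization between arrays (-0.42), median scaling (-0.12) and array brightness as a covariate (-1.0), and over single arrays left out Lef1 ranged from -0.047 to 0.41 and Axin2 from -0.41 to 0.045. With no normalization Sp5 was -0.18, Sfrp2 -0.29, Csnk1d -0.18, Pygo1 -0.11, Smarca4 -0.16, Hdac1 -0.19 and Utf1 -0.20. The number of genes past the threshold, 1211 as reported, was 5771 with no normalization, 2103 with median scaling, 2175 with array weights, 167 at 0.01, 2121 at 0.10, 16 with array brightness and 510 to 1440 without single arrays. The 3 members became 1 at 0.01 and 0 with array brightness (limma, 5 at an unadjusted p under 0.05), and 2 to 3 without single arrays. The 12 wider genes became 42, 22, 1, 21 and 0 with no normalization, array weights, 0.01, 0.10 and array brightness, and 3 to 14 without single arrays (18 at an unadjusted p under 0.05 with array brightness in limma). Counts at 0.01 and 0.10 follow from the threshold, and the cause of the other shifts was not tested. No pairing by number showed in the deviations of same-numbered clones from their group means (correlations -0.04, -0.08, 0.05 and -0.04). A slide or culture day shared by number was not tested, as neither is given in the sources used here. With the clone number as a replicate block 671 genes, 3 members and 7 wider genes passed, with adjusted p of 0.0228 for Sfrp1, 0.0146 for Tnfrsf19 and 0.0366 for Tcf7l2. The mean intensity of knockout arrays was 69.3% to 75.2% of wildtype without single arrays.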
